A study of Homo sapiens with 30 samples.

Results

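SAMD11 encodes a nuclear protein with a sterile alpha motif (SAM) domain, and it was followed here as a gene whose transcript rose late after bone morphogenetic protein 4 (BMP4) was given to breast cancer cells. The gene was selected on measured values, the late rise of its BMP4 to vehicle ratio on these same arrays and the likeness of that ratio to those of ID1 and ID3, so its ratio, the time at which it rose and those correlations are given as a description with no test. SAMD11 was 1 gene, measured by 1 probe with 1 spot per array, of 30484 gene names and 41000 probes on the array, so the agreement of several probes could not be assessed. The data were 30 two-colour arrays of ZR-75-30, SK-BR-3, HCC1419, MDA-MB-361 and HCC1954 cells, all established lines from human breast cancers, each at 30 min, 1, 3, 6, 12 and 24 h. On every array the RNA of BMP4-treated cells carried Cy5 and the RNA of cells given vehicle for the same time carried Cy3. Triplicate cultures were pooled before RNA was extracted, so each of the 6 time points had 1 array of each of the 5 lines, and errors are spreads over lines or over arrays of a line. The dyes were not exchanged on any array, so a single ratio may include a dye effect of the spot, and one that is common to all arrays drops out when time points are subtracted. In such bulk RNA, fewer responding cells and less transcript per cell cannot be told apart.

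BMP ligands bind type I and type II serine-threonine kinase receptors, which phosphorylate SMAD1, SMAD5 and SMAD9. These join SMAD4 and enter the nucleus, where the ID genes, which encode inhibitors of basic helix-loop-helix transcription factors, are among the best known direct targets. SAMD11 is best known from the retina, where its mouse counterpart is found in photoreceptors under the transcription factor CRX and acts with SAMD7 and the polycomb protein PHC2 in gene silencing. The luminal epithelial markers KRT8, KRT18, KRT19, EPCAM, ERBB2 and GATA3 were well above background in vehicle on 30 of 30 arrays, and CDH1 on 24. Of the markers of other cell types, PDGFRB, PTPRC and CRX were well above background on 0 arrays and COL1A2 and RCVRN on 1 each, whereas the probes listed as COL1A1 and CD3E were so on 28 and 30.

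The SAMD11 probe lay on chromosome 1 at chr1:869311-869370 of build hg18, on the forward strand, and the array annotation assigns it to the SAMD11 RefSeq transcript. Its spot was well above background in both channels of all 30 arrays and was neither flagged nor saturated on any. The sequence upstream of the gene start is shown because GGCGCC, a GC-rich motif described for SMAD1 and SMAD5, occurred in it 3 times. The 250 bases before the RefSeq gene start (GRCh38.p14, chr1:925481-925730, forward strand) are written 5′ to 3′ with GGCGCC in capitals.
SAMD11 upstream sequence: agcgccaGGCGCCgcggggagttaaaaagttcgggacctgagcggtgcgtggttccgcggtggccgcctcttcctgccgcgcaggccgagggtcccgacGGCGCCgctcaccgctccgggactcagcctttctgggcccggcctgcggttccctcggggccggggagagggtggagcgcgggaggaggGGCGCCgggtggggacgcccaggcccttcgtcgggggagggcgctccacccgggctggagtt
GGCGCC reads the same on both strands, and its matches did not overlap. At least 1 match was found in 19.2% of 35116 RefSeq promoter windows of 300 bases and 3 or more in 0.871%. The SAMD11 window was 75% G or C, and among the 6312 windows within 5 percentage points of that content these shares were 47.4% and 2.82%. The windows of ID1, ID2, ID3, ID4, SMAD6, SMAD7, BMF, TYRO3 and RAB31 held 0 matches. That of NOC2L held 1, those of RCAN3 held up to 2 and that of LIN7B held 3. A match is a description of letters and not a measured binding site, and sequence outside these windows was not examined.

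In HCC1419 the log2 ratio of BMP4 to vehicle for SAMD11 at 30 min, 1, 3, 6, 12 and 24 h was -0.37, -0.13, 0.87, 1.33, 0.99 and 0.82. In MDA-MB-361 it was 0.08, 0.36, 0.92, 1.32, 1.26 and 1.02 at the same times. Both lines were at their highest at 6 h, at 2.51-fold and 2.50-fold, and their ratios at 3 h and later were all above those at 30 min and 1 h. In SK-BR-3 the log2 ratio was -0.33, 0.05, 0.67, 0.72, 0.44 and 0.59, and in ZR-75-30 it was -0.29, 0.45, 0.52, 0.84, 0.86 and 0.43. These lines reached at most 1.65-fold and 1.81-fold, and in ZR-75-30 the ratio at 24 h was no higher than that at 1 h. In HCC1954 it was -0.14, 0.05, 0.71, 0.75, 0.25 and 1.45, with the highest single ratio of all arrays, 2.73-fold, at 24 h and a low value at 12 h.

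**Figure D1:**
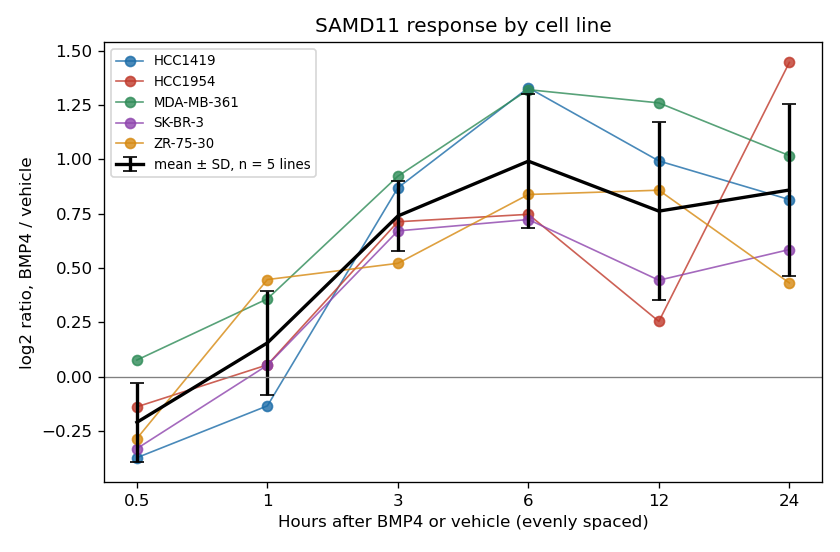
The log2 ratio of BMP4 to vehicle for the SAMD11 probe (vertical axis) is plotted against hours of treatment (horizontal axis, evenly spaced) for each of the 5 lines, with the mean ± SD in black. At 30 min 4 of 5 lines lay below 0, and from 3 h on all 5 lay above 0.

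Over the 5 lines the log2 ratio averaged -0.21 ± 0.18 (SD, n = 5) at 30 min and 0.16 ± 0.24 at 1 h. The later means were 0.74 ± 0.16 (3 h), 0.99 ± 0.31 (6 h), 0.76 ± 0.41 (12 h) and 0.86 ± 0.40 (24 h). The highest ratio at 1 h, 0.45 in ZR-75-30, lay just below the lowest ratio at 3 h, 0.52 in the same line. These time points thus did not overlap with these values, while 3, 6, 12 and 24 h overlapped one another. With the software's processed signals 1 h and 3 h did overlap, at 0.62 and 0.59 in ZR-75-30. A ratio of 1.5-fold was first reached at 3 h in 4 lines and at 6 h in ZR-75-30. In ZR-75-30 that time depended on the processing. It was 3 h in the authors' series matrix (log2 ratio 0.61) and 1 h with the processed signals (0.62). A ratio of 2-fold was reached on 5 of 30 arrays with these values and on 10 in the authors' series matrix, which was normalized in another way. The cause of these differences was not tested. The negative ratios at 30 min may hold a dye bias, which cannot be told apart from a response without swapped dyes.

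The late change, defined as the mean log2 ratio at 3, 6, 12 and 24 h minus that at 30 min, was largest in HCC1419 at 1.38, followed by MDA-MB-361 at 1.05. It was 0.95 in ZR-75-30, 0.94 in SK-BR-3 and 0.93 in HCC1954. It averaged 1.05 ± 0.19 (SD, n = 5), or 2.07-fold, and was positive in 5 of 5 lines. With the software's processed signals the average was 1.30, and in HCC1954 the log2 ratio at 3, 6, 12 and 24 h was then 1.13, 1.38, 1.13 and 1.79. HCC1954 had the dimmest spot, at 2.56 to 11.1 times its local background in Cy3, against 16.1 to 69.6 times in the other lines. Within 1 scan day, where the 30 min array and later ones of a line were scanned together, the change was 1.38 in HCC1419, 1.05 in MDA-MB-361, 0.98 in ZR-75-30 and 0.39 in HCC1954, the last from its 12 h array alone. Taken as the mean of 3 to 24 h minus the mean of 30 min and 1 h, the change ranged from 0.58 in ZR-75-30 to 1.26 in HCC1419.

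The vehicle channel shows how much SAMD11 transcript the lines carried without BMP4. The level of a line was not itself a ground for choosing the gene. Vehicle is, however, the denominator of the ratio that was, so its change over time is not independent of that choice. The normalized log2 Cy3 intensity at 30 min, 1, 3, 6, 12 and 24 h was 10.64, 10.60, 10.93, 11.05, 11.78 and 11.81 in SK-BR-3. It was 10.47, 10.43, 10.66, 10.51, 10.96 and 11.10 in MDA-MB-361 and 10.25, 10.49, 10.59, 10.45, 10.77 and 10.64 in HCC1419. These lines were bright throughout and overlapped. In ZR-75-30 it was 9.74, 9.60, 9.97, 9.11, 9.93 and 10.14, and in HCC1954 it was 7.08, 8.19, 7.10, 6.90, 7.46 and 7.15. HCC1954 lay below every array of the other lines, and its 1 h array stood above its other 5 in vehicle, while in the BMP4 channel its 24 h array was the brightest, at 8.60 against 8.24 at 1 h.

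**Figure D2:**
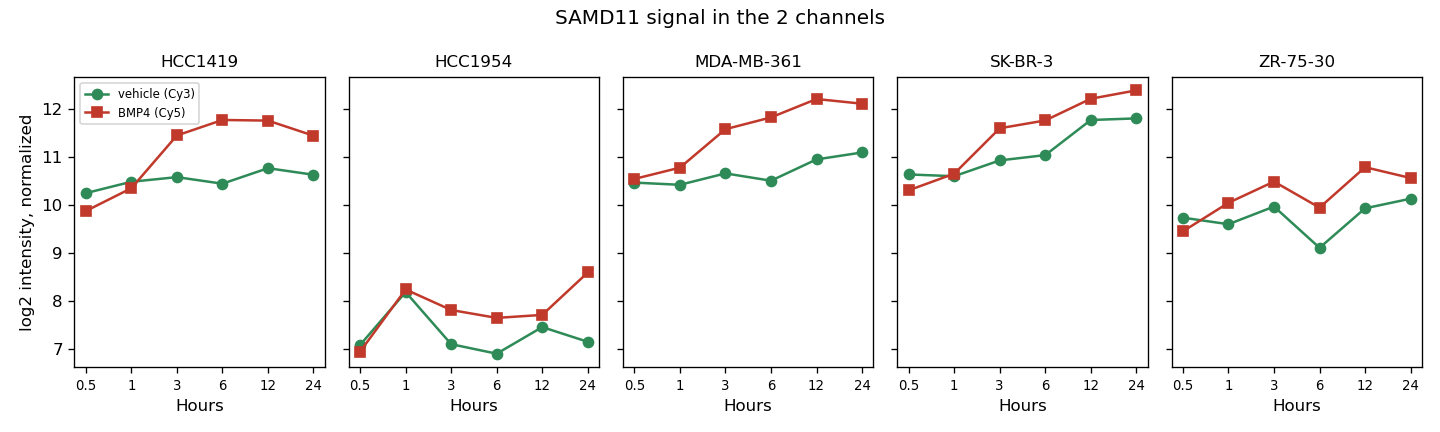
Normalized log2 intensity of the SAMD11 probe in vehicle (Cy3, circles) and BMP4 (Cy5, squares) is plotted against hours of treatment, 1 panel per line with a shared vertical axis. The channels part from 3 h on, and HCC1954 lies lowest in both.

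The mean vehicle level was 11.14 ± 0.54 (SD, n = 6 arrays) in SK-BR-3, 10.69 ± 0.28 in MDA-MB-361, 10.53 ± 0.18 in HCC1419, 9.75 ± 0.36 in ZR-75-30 and 7.31 ± 0.46 in HCC1954. The lines differed (limma F test, adjusted p = 2.3e-14), spanning 14.2-fold, but 73.1% of all probes were called in that test, so a difference between these lines was the usual result. In order of level, SK-BR-3 lay above MDA-MB-361 by 0.45 ± 0.18 (SE; limma adjusted p = 0.042, with 54% of probes called), a call that was lost without background correction (adjusted p = 0.063), without HCC1419 (0.075) and without ZR-75-30 (0.054). MDA-MB-361 and HCC1419 differed by 0.16 ± 0.18 and did not pass (adjusted p = 0.54, 43.3% of probes called). HCC1419 lay above ZR-75-30 by 0.78 ± 0.18 (adjusted p = 0.0011, 44.3% called), and ZR-75-30 above HCC1954 by 2.44 ± 0.18, or 5.42-fold (adjusted p = 8.8e-11, 40.9% called). The arrays of a line were different time points of 1 line, so these p-values measure the spread between such arrays. Over time the vehicle level averaged between 9.60 at 6 h and 10.18 at 12 h. The change did not pass (limma F test, adjusted p = 0.45, unadjusted p = 0.029, 0.144% of probes called). Since vehicle is the denominator of the ratios that chose the gene, that test is not independent of the choice. From 30 min to the mean of 3 to 24 h the BMP4 channel rose by 1.00 to 1.73 on the log2 scale in each line and the vehicle channel by 0.05 to 0.75, most in SK-BR-3.

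The ID1 probe lay at chr20:29657819-29657878 and the ID3 probe at chr1:23758253-23758312 (hg18). The ID1 log2 ratio averaged 0.42 ± 0.11 (SD, n = 5) at 30 min, 1.33 ± 0.51 at 1 h and 1.37 ± 0.45 at 3 h, and that of ID3 averaged 0.01 ± 0.14, 0.84 ± 0.33 and 0.99 ± 0.32. On these means both were thus near their later level at 1 h. By then 89.5% of the late change of ID1 and 86.4% of that of ID3 was present, against 34.9% for SAMD11. Single lines differed. In SK-BR-3 the ID1 ratio was 0.65 at 1 h against a mean of 1.12 at 3 to 24 h. In HCC1954 that of ID3 was 0.68 against 1.32, and in ZR-75-30 that of SAMD11 was 0.45 against 0.66. At 1 h the SAMD11 ratio lay below those of ID1 and ID3 in 5 of 5 lines. The gap there was 1.18 ± 0.58 for ID1 and 0.69 ± 0.36 for ID3 on the log2 scale. Part of this gap was present at 30 min, when the SAMD11 ratio also lay below both in 5 of 5 lines. The mean differences at 30 min were -0.63 ± 0.27 for ID1 and -0.22 ± 0.12 for ID3. At 6 h it lay below ID1 in 5 lines and below ID3 in 2.

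**Figure D3:**
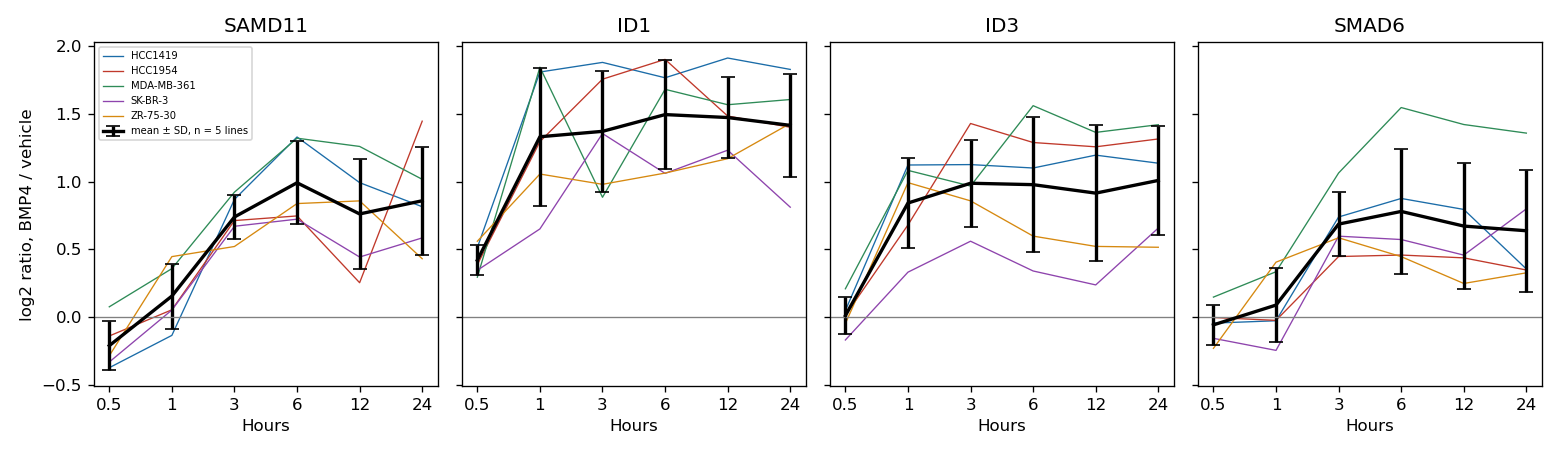
Log2 ratios of BMP4 to vehicle for SAMD11, ID1, ID3 and SMAD6 are plotted against hours of treatment, with thin lines for the 5 cell lines and the mean ± SD in black. ID1 and ID3 average 1.33 and 0.84 at 1 h, where SAMD11 and SMAD6 average 0.16 and 0.09.

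Over the 30 arrays the SAMD11 ratio had a Pearson r of 0.61 (Spearman rho 0.54) with ID1 and of 0.72 (rho 0.69) with ID3. After the mean of each line was removed r was 0.64 and 0.74, and within single lines of 6 arrays it ran from 0.55 to 0.85 for ID1 and from 0.62 to 0.87 for ID3. The 2 arrays farthest from the SAMD11 median were the 30 min arrays of HCC1419 and SK-BR-3, and r without them was 0.51 and 0.64. On the 25 arrays after 30 min r was 0.25 for ID1 and 0.45 for ID3, and after the mean of each time point was removed from all 30 it was 0.20 and 0.52. Much of the ID1 relation thus lay between 30 min and the later times. The arrays share lines, time points and slides and are not independent.

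Among the 25209 other probes that were well above background in both channels on at least 15 arrays and had a value on all 30, the ratios most like that of SAMD11 by Pearson r over 30 arrays were those of SMAD6 (0.81), RCAN3 (0.79, on the array as DSCR1L2), BMF (0.76), TYRO3 (0.75) and ACKR3 (0.75, on the array as CXCR7). Next came RAB31 by 2 probes (0.75 and 0.72), THC2701797 (0.75), LIN7B (0.74) and FLJ39609 (0.73), and ID3 ranked 11 and ID1 65. SMAD6 encodes an inhibitory SMAD that damps BMP signalling, BMF a pro-apoptotic BH3-only protein, TYRO3 a receptor tyrosine kinase and RAB31 a small GTPase of vesicle traffic. The log2 ratio of SMAD6 averaged -0.06 ± 0.15 (SD, n = 5) at 30 min, 0.09 ± 0.27 at 1 h and 0.69 ± 0.23 at 3 h, so that like SAMD11 it was low at 1 h. Its late change was 0.75 ± 0.11 (SE from limma), and that of BMF was 0.72 ± 0.09. Over all probes the late change was called higher for 38 and lower for 0, which is 0.0927% and 0%. Of the 10 probes, ACKR3 and the weaker RAB31 probe did not pass. The 10 were picked for likeness to a gene chosen for its late rise, so calls among them are not independent support.

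The region around SAMD11 was examined because its neighbours did not enter the choice of the gene. Within 200 kb on either side of the SAMD11 probe lay 26 other probes under 19 names, and 1 of them, FLJ39609, was called higher, against 0.0927% of all probes. The FLJ39609 probe lay at chr1:843573-843632 (hg18), 25.7 kb from the SAMD11 probe and on the reverse strand. Its late change was 0.87 ± 0.14 (SE; limma adjusted p = 0.0048) and was positive in 5 of 5 lines. The other 25 ranged from -0.13 to 0.40 with a lowest adjusted p of 0.96, 5 of the 26 had an unadjusted p under 0.05 against 4.99% of all probes, and the median of the 26 was 0.03 against 0.01 for all probes.

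**Figure D4:**
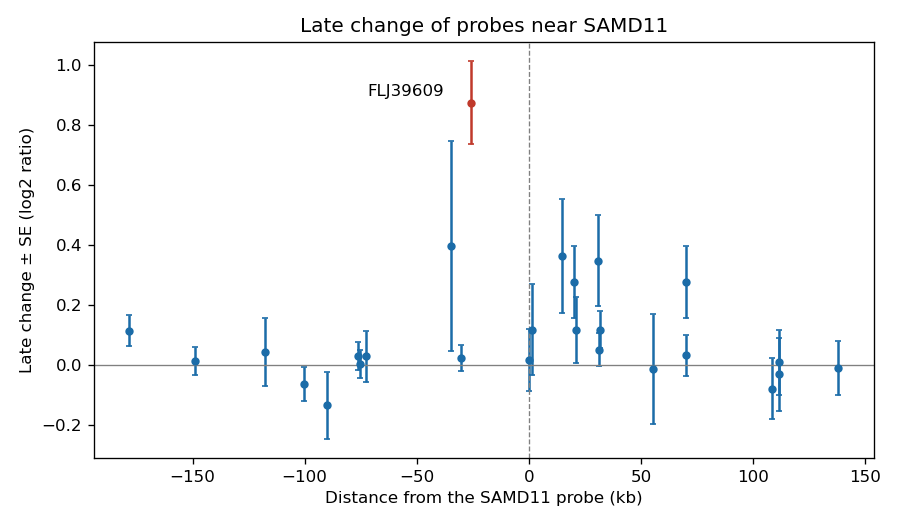
The late change of each of the 26 neighbouring probes (log2 ratio, ± SE from limma) is plotted against its distance in kb from the SAMD11 probe, which sits at 0 and is not drawn. FLJ39609, in red, stands at 0.87, and the other 25 lie between -0.13 and 0.40.

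NOC2L, which encodes an inhibitor of histone acetyltransferases and is read from the opposite strand, had the nearest probe, 140 bases away, and its late change there was 0.02 ± 0.10 (SE; limma adjusted p = 0.999). Its other probes gave 0.12 ± 0.15 and 0.36 ± 0.19. KLHL17 gave 0.28 ± 0.12, PLEKHN1 0.35 ± 0.15 and ISG15, an interferon-induced ubiquitin-like modifier, 0.28 ± 0.12. HES4, a transcriptional repressor, gave -0.01 ± 0.18, and the 3 probes of AGRN, which encodes the matrix proteoglycan agrin, lay between -0.08 and 0.01. None of these passed, with unadjusted p of 0.030 for KLHL17 and 0.031 for PLEKHN1 and ISG15.

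The FLJ39609 log2 ratio at 30 min, 1, 3, 6, 12 and 24 h was -0.01, 0.07, 0.51, 1.46, 1.24 and 0.87 in HCC1419. It was -0.28, -0.18, 0.26, 0.97, 1.26 and 1.30 in MDA-MB-361 and -0.23, 0.23, 0.16, 0.81, 1.00 and 1.03 in SK-BR-3. These lines rose mainly from 6 h. In ZR-75-30 it was -0.07, 0.07, 0.41, 0.57, 1.35 and 0.92, and in HCC1954 it was -0.01, 0.09, 0.05, 0.10, 0.04 and 0.72. With these values HCC1954 stayed near 0 until 24 h. With the software's processed signals its log2 ratio was 0.76, 0.17, 0.46, 0.71, 1.54 and 1.96 at the same times. In that line only 1 of 6 arrays in Cy3 and 3 of 6 in Cy5 had the spot well above background, so its time course there depends on the processing. At 3 h the FLJ39609 ratio lay below that of SAMD11 in 5 of 5 lines, with means of 0.28 ± 0.19 and 0.74 ± 0.16 (SD, n = 5). With the processed signals the order at 3 h was reversed in ZR-75-30 (0.79 against 0.59) and kept in the other lines. At 12 h the means were 0.98 ± 0.54 and 0.76 ± 0.41. As for SAMD11, the vehicle level was lowest in HCC1954, at a mean of 6.64 on the log2 scale against 7.89 to 10.08 in the other lines. The call for FLJ39609 was lost when HCC1419, MDA-MB-361, SK-BR-3 or ZR-75-30 was left out (adjusted p = 0.066 to 0.16, change 0.78 to 0.87), and it held without HCC1954.

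**Figure D5:**
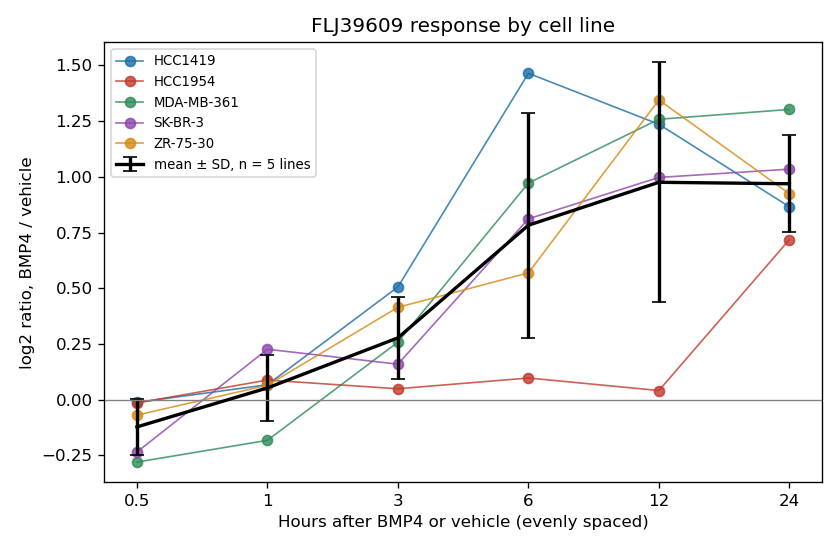
The log2 ratio of BMP4 to vehicle for the FLJ39609 probe is plotted against hours of treatment for each of the 5 lines, with the mean ± SD in black. The mean is 0.28 at 3 h and 0.98 at 12 h. HCC1954, where the spot is dim, stays near 0 until 24 h with the values plotted but not with the processed signals.

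Of 36 genes of the BMP pathway and its targets, 26 had a positive late change, against 21855 of all 41000 probes. Of the 36, 6 were called higher, against 0.0927% of all probes, and 0 lower. The median was 0.08 against 0.01 for all probes. Without ID1 and ID3, which entered the choice of SAMD11, 4 of 34 were called higher and the median was 0.07. The 6 were the targets ID1, ID2, ID3, ID4 and DLX3 and the inhibitor SMAD6. ID2 had a late change of 1.33 ± 0.19 (SE; limma adjusted p = 0.0016), ID4 of 0.94 ± 0.14 (adjusted p = 0.0016) and the homeobox gene DLX3 of 0.69 ± 0.12 (adjusted p = 0.0094). The count of 6 fell to 2 without MDA-MB-361 or with a median factor per array, to 1 without the line block and to 0 with slide as a further block, and DLX3 lost its call under 7 of 15 alternatives. No ligand, receptor or signal transducer of the list passed. The inhibitory SMAD7 had 0.25 ± 0.09 and the BMP pseudoreceptor BAMBI 0.46 ± 0.12, with adjusted p of 0.83 and 0.25.

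Of all 41000 probes, 21855 had a positive late change and 0.0927% were called, and the 3 lists that follow are to be read beside these shares. Of 12 other SAM domain genes with a probe, 7 had a positive late change and 0 were called, with a range of -0.14 to 0.18 and a median of 0.04. SAMD7, the retinal partner of SAMD11, had a dim spot in both channels of all 30 arrays, never well above background, so its response was not measurable here. Of 23 polycomb group genes 9 had a positive late change and 0 were called, with a median of -0.02, and PHC2 had -0.0036 ± 0.088 at a bright signal. Of 19 photoreceptor genes 10 had a positive late change and 0 were called, with a median of 0.0023, and CRX was dim, well above background on 0 of 30. Only 5 of these 19 were well above background in either channel on at least 15 arrays. The same held for 7 of the 12 SAM domain genes and 22 of the 23 polycomb group genes. For the dim genes, the lack of a call and a change near 0 say little. In each of these 3 lists 2 genes had an unadjusted p under 0.05, against 16 higher and 1 lower in the BMP list and 4.99% of all probes.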

How the data were processed

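The authors pooled triplicate cultures, hybridized 1 two-colour Agilent array per line and time, and extracted signals with Feature Extraction, version 9.5.1.1 and build hg18 per the file headers. Per the file headers, spot means and local backgrounds are raw intensity readings, and processed signals are intensity readings that the software had background-subtracted and dye-normalized. The matrix deposited by the authors gives log2 ratios whose median is 0 on each array. The deposited flag columns, other values, mark spots well above background, saturated or not uniform.

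Mean signals were corrected by normexp (offset 50), normalized by loess within arrays without the 1639 control spots of 45015, and averaged per probe. The offset shrinks ratios of dim spots. Vehicle levels were log2 Cy3 values after Aquantile scaling between arrays. Tests were limma 3.58.1 fits in R 4.3.3 over all probes, with Benjamini-Hochberg adjusted p under 0.05 as the threshold and the fit tested on simulated data. The late change was fitted with the line as a block, because replicate numbers 1 to 5 each stand for 1 cell line. Deviations from the time means correlated at 0.23 on average over 75 pairs of arrays of a line. The gene, lists and rules were chosen with earlier results of these data known. Genes named were SAMD11, ID1, ID3, the 10 probes most like SAMD11, probes within 200 kb, listed genes called, SAMD7, PHC2 and the cell type markers. SMAD7 and BAMBI were named after their values were seen. A planned test of the SAMD11 late change between lines was run and is not reported, since it uses the ratios that chose the gene. Each listed gene was taken at its brightest probe. A further listed gene is not reported here. The arrays lay on 12 slides scanned on 7 days. The number of arrays limits the precision, and 58.9% to 70.6% of probes per array were well above background in Cy3. Alternatives were other background corrections and scalings, a filter on dim probes, array weights, scan day and slide as blocks, and leaving out each line.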

Additional observations from a re-analysis of the deposited data

Results flagged for a closer look

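As a description, in 23 groups of 5 or 6 SAMD11 values, 4 had an end value set apart from the rest by a gap that chance gives in about 1 group of 20. The groups reuse the same 30 arrays, and some hold the ratios that chose the gene. The count of 4 therefore cannot be set against that rate. The vehicle level of HCC1954 was the lowest of the 5 lines at 30 min, at 7.08 against 9.74 for the next, and at 3 h, at 7.10 against 9.97. Within ZR-75-30 the log2 ratio at 30 min, -0.29, stood apart from the other times, of which the lowest was 0.43. The late change of HCC1419, 1.38, stood apart from the other lines, of which the highest was 1.05.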

How the results depend on the processing

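The SAMD11 late change of 1.05 stayed positive under all 13 alternatives, from 0.87 to 1.31. It was 1.30 with the processed signals and 1.31 in the series matrix, 0.97 to 1.08 when 1 line was left out, and 1.22 within slides in 2 lines. The correlations stayed between 0.56 and 0.74 for ID1 and between 0.65 and 0.82 for ID3. The F tests of the vehicle level between lines and over time kept their side of the threshold under the 10 and 11 alternatives run. Of the pairs of lines, examined after seeing the data, SK-BR-3 over MDA-MB-361 lost its call under 3 of 8 alternatives and the other pairs under 0 of 8. Without the replicate block, that is without the pairing by line, 0 neighbouring probes, 1 listed BMP gene and 3 probes of all were called, against 1, 6 and 38, and FLJ39609 had adjusted p = 0.057. Leaving out 1 line gave 0 to 1 neighbouring probes, and 2 to 6 listed BMP genes, with 2 when MDA-MB-361 was left out. With a median factor per array 2 listed BMP genes and 10 probes of all were called. With array weights 115 probes were called. With slide as a further block, chosen after seeing the data as were the within-slide values and the fits without the HCC1954 array at 1 h, 0 listed BMP genes and 11 probes were called, while FLJ39609 held (1.24, adjusted p = 0.0014). The cause of these changes was not tested. No fit with the scan day changed the FLJ39609 call (0.95, adjusted p = 0.022). Without HCC1419, 16 probes of all were called, without MDA-MB-361 6, and without ZR-75-30 16.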
